A study of Mus musculus with 7 samples.

Results

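The 10 genes described here are immediate early genes, the first genes that cells transcribe after a stimulus: Fos, Fosb, Jun, Junb, Jund, Egr1, Atf3, Ier2, Ier3 and Dusp1. They were taken by name from the platform annotation, and all 10 were measured, by 12 probe sets, among 18193 genes in all. Expression was measured on Affymetrix 430 2.0 arrays of luminal cells, the secretory epithelial cells of the prostate gland, sorted by flow cytometry from mouse prostates. The WT group held 3 arrays of wild-type cells (replicates A to C). The T-ETV1 group held 4 arrays (replicates A to D) of cells from mice in which the endogenous Tmprss2 promoter drives a human cDNA of ETV1, an ETS transcription factor. Both groups were sorted as lineage negative (CD31, CD45, Ter119), Sca1 negative and CD49f positive, and an additional GFP gate was applied to T-ETV1 cells, so that genotype and the GFP gate cannot be told apart. The sources used here do not give the age and strain of the mice, the time from tissue to lysis or the number of animals behind an array. Values of single arrays are listed by letter, from A to C for WT and from A to D for T-ETV1.

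Immediate early genes need no new protein to be switched on. Growth factors, mechanical force, heat or enzymatic digestion activate the kinases ERK, JNK and p38, which act on factors already bound at these promoters: serum response factor with its ETS-family partners Elk1 and Elk4, and CREB and ATF proteins. The transcripts appear quickly and decay quickly. Their products include the Fos and Jun proteins, which pair as the transcription factor AP-1, and Dusp1, a phosphatase that switches the kinases off again. Tissue dissociation and cell sorting are known to induce them together with heat shock genes, so that their level in sorted cells can reflect the handling of the tissue as well as its state in the animal.

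To show what such promoters look like, the windows from 250 bases before to 50 bases after the transcription start were read from RefSeq (GRCm38.p6), in which 8 of the 10 genes matched. Capitals mark TGACG, the core that CREB and ATF proteins are known to bind, on either strand (CGTCA on the other). The 5 members that hold it are printed on their own strand, 5′ to 3′.
Fos (chr12:85473640-85473939, plus strand): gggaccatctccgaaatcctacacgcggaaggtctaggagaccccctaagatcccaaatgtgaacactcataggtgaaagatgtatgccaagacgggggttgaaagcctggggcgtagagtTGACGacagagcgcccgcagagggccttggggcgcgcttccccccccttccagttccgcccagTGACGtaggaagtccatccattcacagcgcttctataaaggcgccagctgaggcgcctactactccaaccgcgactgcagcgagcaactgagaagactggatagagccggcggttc
Fosb (chr7:19309996-19310295, minus strand): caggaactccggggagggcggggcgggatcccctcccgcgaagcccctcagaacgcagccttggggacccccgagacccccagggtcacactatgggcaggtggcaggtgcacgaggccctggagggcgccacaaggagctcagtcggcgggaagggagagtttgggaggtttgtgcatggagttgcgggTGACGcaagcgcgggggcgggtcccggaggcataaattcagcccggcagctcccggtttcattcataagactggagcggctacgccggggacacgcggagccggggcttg
Junb (chr8:84978699-84978998, minus strand): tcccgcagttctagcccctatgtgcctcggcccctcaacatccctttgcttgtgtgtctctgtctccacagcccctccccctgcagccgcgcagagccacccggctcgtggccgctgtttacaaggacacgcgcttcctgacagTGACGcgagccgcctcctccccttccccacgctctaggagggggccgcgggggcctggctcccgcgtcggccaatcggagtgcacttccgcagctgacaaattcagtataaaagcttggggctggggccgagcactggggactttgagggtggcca
Atf3 (chr1:191183284-191183583, minus strand): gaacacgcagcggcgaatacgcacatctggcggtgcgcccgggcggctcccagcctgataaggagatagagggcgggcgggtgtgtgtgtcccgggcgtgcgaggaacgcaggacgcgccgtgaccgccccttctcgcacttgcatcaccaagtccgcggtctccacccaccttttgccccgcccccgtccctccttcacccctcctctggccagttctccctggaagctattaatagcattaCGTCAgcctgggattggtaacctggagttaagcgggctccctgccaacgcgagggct
Dusp1 (chr17:26508423-26508722, minus strand): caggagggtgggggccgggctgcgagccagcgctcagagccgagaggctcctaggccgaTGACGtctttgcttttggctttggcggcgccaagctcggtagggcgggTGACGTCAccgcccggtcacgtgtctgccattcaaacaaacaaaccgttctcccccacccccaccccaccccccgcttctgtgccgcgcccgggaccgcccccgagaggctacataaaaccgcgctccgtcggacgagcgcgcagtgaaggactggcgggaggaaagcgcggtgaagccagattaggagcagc
TGACG was found in 5 of 8 member promoters and in 20.8% of all 32851 RefSeq promoter windows of this length. It began 129 and 66 bases before the start of Fos, 60 before that of Fosb and 106 before that of Junb, and on the opposite strand it lay 7 to 3 bases before that of Atf3. In Dusp1 it began 191 and 143 bases before the start, and the second copy overlaps a copy on the opposite strand, which gives the 8-base palindrome in the printed sequence. Both strands of these windows were searched for other sites. None of the 8 matched members held a CArG box, the site of serum response factor (1.63% of all windows). They also held no TGANTCA (the AP-1 site, 7.81%) and no CCGGAA (an ETS core, 14.9%). Egr1 and Ier2 had no window and were not searched, and neither was sequence outside the windows. A match is a description of the sequence and does not show that a factor binds there.

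The values are deposited intensities on a linear scale, compared here between arrays for 1 probe set and not between probe sets. The array medians over all probe sets lay between 48.5 and 73.7, and Spearman correlations between arrays between 0.896 and 0.942. Luminal markers were present throughout: the keratin Krt18 lay between 9923 and 11187, and the secretory protein Pbsn between 11930.2 and 12447. WT C stood apart, with the highest median and the highest mean deviation of all 5 lists of markers of other cell types, and T-ETV1 C was the highest array of its group in the same 5 lists. The genotype differences are therefore also given without these arrays.

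All 10 genes gave strong signals in every array, from 625 (Ier2 in T-ETV1 D) to 10045 (Egr1 in WT C), against a highest intensity of any probe set of 13862 to 14597 per array. None differed between T-ETV1 and WT beyond the spread between arrays. Instead the replicates of each genotype differed from one another, in the same sense for nearly all 10 genes: they were high in WT C and T-ETV1 B and low in WT A, T-ETV1 A and T-ETV1 D. In all 10 genes the range within WT and the range within T-ETV1 each exceeded the difference between the group means.

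**Figure D1:**
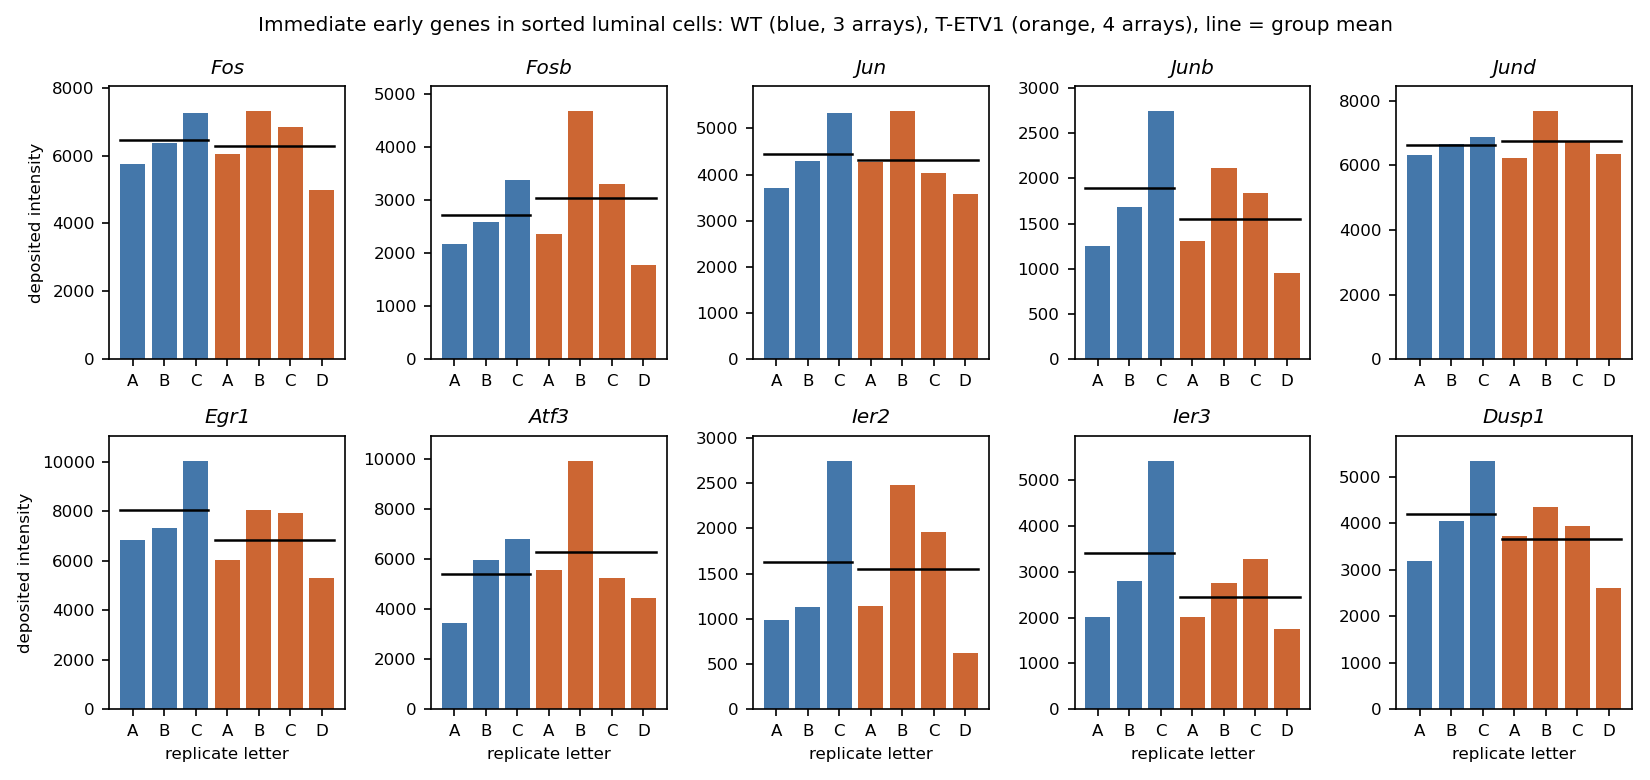
Deposited intensity (linear scale, from 0) of each of the 10 genes, 1 bar per array; WT A to C in blue and T-ETV1 A to D in orange, with a line at each group's mean. The 2 groups overlap in every panel, and T-ETV1 D is the lowest bar for 8 genes.

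Fos, the founding partner of AP-1, had intensities of 5759, 6381 and 7243 across the WT arrays, and of 6036, 7318, 6832 and 4985 across the T-ETV1 arrays. The T-ETV1 arrays thus held both the highest and the lowest value. On the scale of log2(intensity + 16), used for every log2 value here, the WT mean of Fos was 12.65 ± 0.17 (SD, n = 3) and the T-ETV1 mean 12.61 ± 0.24 (SD, n = 4). The difference, T-ETV1 minus WT, was -0.05 ± 0.16 (SE), with a 95% interval from -0.44 to 0.35 (limma adjusted p = 0.986).

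Fosb, another Fos family member that pairs with Jun proteins, had intensities of 2168, 2592 and 3387 across the WT arrays. It reached 2358, 4681, 3302 and 1782 across the T-ETV1 arrays, so that T-ETV1 B was 2.63 times T-ETV1 D. The log2 difference was 0.09 ± 0.35 (SE; interval -0.74 to 0.91; limma adjusted p = 0.986).

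Jun, the main partner of Fos and a target of JNK, was read by a pair of probe sets. The brighter one gave 3717, 4297 and 5329 across the WT arrays and 4272, 5381, 4026 and 3587 across the T-ETV1 arrays. The other gave 3084, 3985 and 6003 in WT and 3196, 5553, 4123 and 2475 in T-ETV1. Both put WT C and T-ETV1 B on top and T-ETV1 D at the bottom. Their log2 differences were -0.04 ± 0.19 and -0.19 ± 0.33 (SE; limma adjusted p = 0.987 and, over all probe sets, 0.962).

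Junb, a Jun family member that restrains some actions of Jun, had intensities of 1248, 1681 and 2747 across the WT arrays and of 1308, 2116, 1837 and 956 across the T-ETV1 arrays. WT C was 2.20 times WT A, and T-ETV1 B 2.21 times T-ETV1 D. Its log2 difference was -0.27 ± 0.36 (SE; interval -1.14 to 0.60; limma adjusted p = 0.946).

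Jund, known as the Jun family member that resting cells already express, varied least. Its intensities were 6322, 6653 and 6858 across the WT arrays and 6212, 7681, 6708 and 6356 across the T-ETV1 arrays, a span of 1.24 times from lowest to highest. T-ETV1 B was the highest array. The log2 difference was 0.02 ± 0.11 (SE; interval -0.24 to 0.29; limma adjusted p = 0.989). A second Jund probe set was dim, between 12.5 and 42.6, and had a difference of 0.36 ± 0.25 (SE; adjusted p over all probe sets = 0.886).

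Egr1, a zinc finger transcription factor driven by serum response factor and its ETS partners, had intensities of 6817, 7334 and 10045 across the WT arrays. Across the T-ETV1 arrays it had 6027, 8042.5, 7916 and 5285. WT C was the highest and T-ETV1 D the lowest array. The log2 difference was -0.24 ± 0.21 (SE; interval -0.75 to 0.27; limma adjusted p = 0.910), the smallest p of the 10 genes (unadjusted p = 0.293).

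Atf3, a CREB/ATF family factor of the stress response, followed a somewhat different order. The WT arrays had 3455, 5939 and 6782, and the T-ETV1 arrays 5545, 9925, 5231 and 4427. Its lowest array was WT A and its highest T-ETV1 B, 2.87 times apart. The log2 difference was 0.20 ± 0.35 (SE; interval -0.62 to 1.03; limma adjusted p = 0.957).

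Ier2, a nuclear protein, was the most variable of the 10 genes. It had 989, 1130.3 and 2749 across the WT arrays and 1142, 2483, 1956 and 625 across the T-ETV1 arrays. Its highest array was 4.40 times its lowest, and T-ETV1 B was 3.97 times T-ETV1 D. The group means were nevertheless close, at 10.52 ± 0.79 (SD, n = 3) and 10.43 ± 0.87 (SD, n = 4) on the log2 scale. The difference was -0.09 ± 0.56 (SE; interval -1.43 to 1.26; limma adjusted p = 0.991), the widest interval of the 10 genes.

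Ier3, a regulator of cell survival and stress signalling, had 2020.1, 2790.4 and 5431 across the WT arrays and 2015, 2765, 3291 and 1761 across the T-ETV1 arrays. WT C alone lay far above the other arrays, and T-ETV1 B, high for most members, was not high for Ier3. Its log2 difference was the largest in size of the 10 genes, -0.39 ± 0.38 (SE; interval -1.29 to 0.51; limma adjusted p = 0.918). It was 0.01 without WT C.

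Dusp1, the phosphatase that ends MAP kinase signalling, had 3195, 4063 and 5352 across the WT arrays and 3724, 4361, 3943 and 2606 across the T-ETV1 arrays. Its top array was WT C and its lowest T-ETV1 D, 2.05 times apart. The log2 difference was -0.19 ± 0.24 (SE; interval -0.77 to 0.38; limma adjusted p = 0.940).

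**Figure D2:**
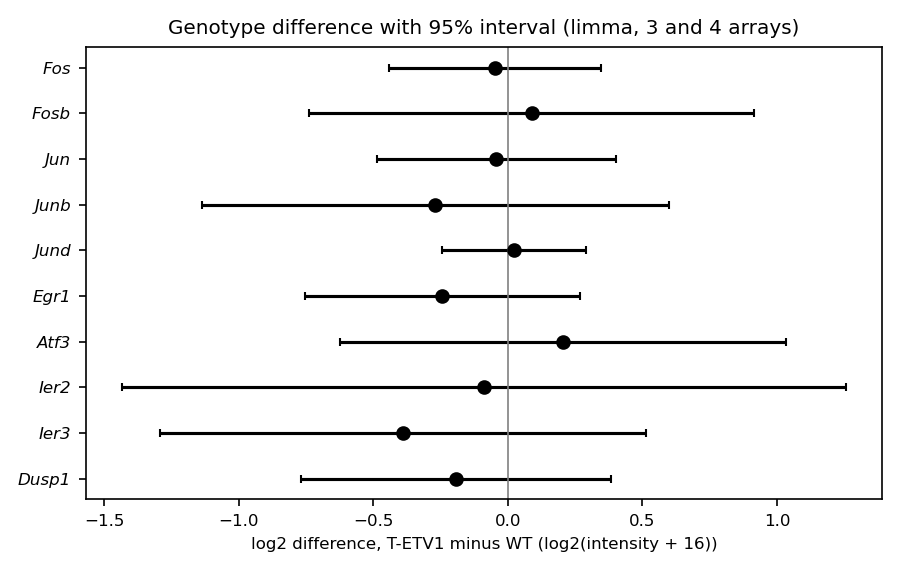
Log2 difference (T-ETV1 minus WT, points) of each gene with its 95% limma interval (lines); 3 WT and 4 T-ETV1 arrays. Every interval includes 0, from the narrowest (Jund, -0.24 to 0.29) to the widest (Ier2, -1.43 to 1.26).

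Across the 10 genes, 0 passed limma's adjusted p of 0.05, as did 0 of all 18193 genes (0%), and 0 had an unadjusted p under 0.05, against 6.12% of all genes. In none of the 10 did the groups of arrays separate, against 6.32% of all genes. Differences were positive for 3 genes and negative for 7, beside 55.6% negative over all genes, with a median of -0.07 in the 10 genes and -0.03 in all genes. The intervals above leave room for changes in either direction, so that the arrays do not show the genotypes to be alike. After median centring of the arrays, which shifted the median over all genes from -0.03 to 0.11, 6 of the 10 differences were positive and 4 negative. Without WT C 8 were positive and 2 negative, and without both C arrays 5 and 5. Without T-ETV1 C the mean of the 10 differences went from -0.10 to -0.15, with Ier3 at -0.54 and Egr1 at -0.32 (limma adjusted p = 0.725 and 0.715). None of the 10 passed without WT C, without both C arrays or without T-ETV1 C, where 0.0385%, 0.374% and 0.148% of all genes did.

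What the 10 genes shared was the order of the arrays. Each gene's log2 value was set against its own mean over the 7 arrays. In WT A, T-ETV1 A and T-ETV1 D all 10 genes lay below their own means, by 0.31, 0.17 and 0.51 on average. In WT C and T-ETV1 B all 10 lay above, with mean deviations of 0.48 and 0.39. WT B had 6 above and 4 below (mean -0.01) and T-ETV1 C 8 above and 2 below (mean 0.13). Over all genes the shares above their own means ran from 39.7% (T-ETV1 A) to 61.1% (WT C), with 47.0% in T-ETV1 B and 43.2% in T-ETV1 D. The median residual SD within groups was 0.42 in the 10 genes and 0.27 in all genes.

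**Figure D3:**
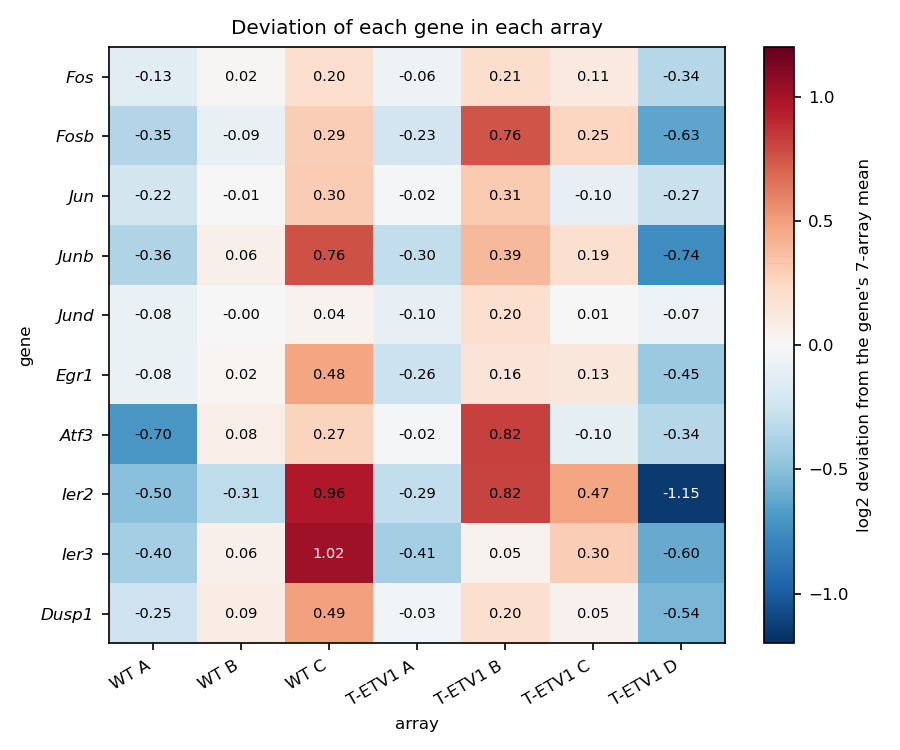
Log2 deviation of each gene (rows) from its own mean over the 7 arrays, in each array (columns); red is above and blue below. The columns WT C and T-ETV1 B are above for all 10 genes and WT A, T-ETV1 A and T-ETV1 D below for all 10.

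The pattern of the arrays held in part under other scalings. After quantile normalization the counts above their own means were the same in 6 arrays, and 1 of 10 in T-ETV1 A. After median centring, T-ETV1 B kept all 10 above and T-ETV1 D had 1 above, while WT C had 7, WT A 2 and T-ETV1 A 5. Over all genes the shares above were then 56.8%, 56.2%, 27.0%, 61.3% and 70.1% in the same order. Median centring also moved the mean deviation of the luminal markers. It went from 0.0057 to -0.28 in WT C, -0.02 to 0.10 in WT A and -0.07 to 0.13 in T-ETV1 A. The mean deviation of the 10 genes in WT C fell from 0.48 to 0.20. In WT A it went from -0.31 to -0.19, and in T-ETV1 A it turned from -0.17 to 0.02. T-ETV1 B and T-ETV1 D were thus the arrays furthest apart with every scaling within T-ETV1, at mean deviations of 0.39 and -0.51 as deposited and of 0.46 and -0.44 after median centring.

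As a description over the 7 arrays, which share 1 scaling and 1 amplification method, Pearson's r between members was positive in all 45 pairs, with a median of 0.86. It ran from 0.49 (Jund with Ier3) to 0.97 (Fos with Ier2). No such r is given here for pairs of other genes or for other scalings, so these values have no baseline. Among the 9097 genes in the upper part of the intensity range, the 8 whose log2 values were most like the mean of the 10 members had r from 0.978 to 0.994, each over 7 arrays. They included Zfp36, which encodes a protein that hastens mRNA decay and is itself an immediate early gene (r = 0.987), and Dnajb1, a heat shock cochaperone (0.978). The other 6 were Prr14, Phrf1, Mbd1, Mcm9, Tdrd7 and Tspan8.

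The letters A to C are shared by the genotypes. Within letter A 7 of the 10 genes were higher in T-ETV1 (mean log2 difference 0.14), and within letter B 9 of 10 (mean 0.40). Within letter C all 10 were lower (mean -0.35). Over all genes the shares higher in T-ETV1 were 47.9%, 48.5% and 44.1% in the same order. Ier2 went from 1.12 within letter B to -0.49 within letter C, and Atf3 from 0.74 to -0.37. T-ETV1 D, the lowest array for 8 of the 10 genes, has no WT array of its letter. Each letter holds 1 array per genotype, so the differences between letters have no replicate and were not tested.

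**Figure D4:**
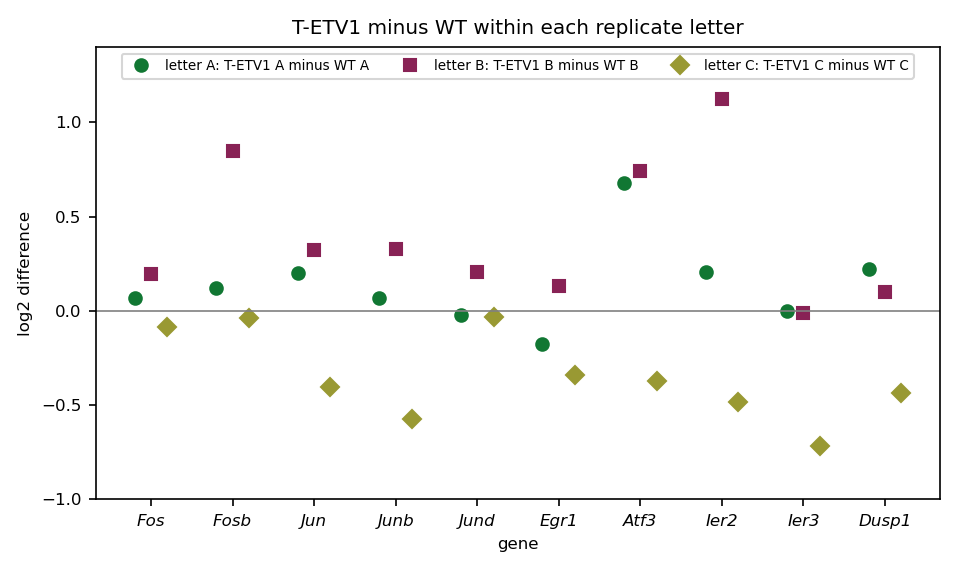
Log2 difference (T-ETV1 minus WT) of each gene between arrays of the same replicate letter; circles for A, squares for B and diamonds for C. All 10 diamonds lie below 0, and 9 of 10 squares lie above 0.

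A wider list of 38 other immediate early genes, all measured, had the same ordering of arrays in the deposited scaling. WT C had 37 of the 38 above their own means (mean deviation 0.97) and T-ETV1 B 34 (0.47), while WT A had 2 (-0.54), T-ETV1 A 3 (-0.42) and T-ETV1 D 4 (-0.74). After quantile normalization the counts were 36, 33, 5, 5 and 5 in the same order, beside 41.9%, 47.0%, 51.2%, 53.1% and 51.6% of all genes. After median centring the counts were 32, 34, 8, 15 and 5 in the same order, beside 27.0%, 56.8%, 61.3%, 70.1% and 56.2% of all genes. Between genotypes 0 of 38 passed limma's threshold and 0 had an unadjusted p under 0.05, with 9 higher, 29 lower and a median difference of -0.18. Ccn2, a matricellular protein gene that responds to mechanical force, had 458, 889 and 2401 across the WT arrays and 137, 638, 730 and 105 across the T-ETV1 arrays. Its difference was -1.72 ± 0.86 (SE; limma adjusted p = 0.844), and the groups overlapped. Others with small p were the transcription factor Cebpd (-0.66 ± 0.33), the stress gene Gadd45b (-0.76 ± 0.41) and Socs3, an inhibitor of cytokine signalling (-1.13 ± 0.64), with limma adjusted p between 0.842 and 0.865. For each of these, as for Ccn2, WT C was the highest array and the groups overlapped. The WT arrays had 658, 737 and 1385 for Cebpd, 860, 1098 and 1890 for Gadd45b, and 342, 549 and 2435 for Socs3. Their differences without WT C are not given here. Klf6, a zinc finger factor and the brightest of the list, had 0.01 ± 0.21.

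Heat shock genes, the other group that dissociation is known to raise, varied in the same sense in the deposited scaling. Of 14 listed, 13 were measured, and T-ETV1 D was the lowest array for 11 of them and WT A for the other 2. The highest array was T-ETV1 B for 7 and WT C for 6. Dnajb1 had 3746, 4937 and 6977 across the WT arrays and 4331, 6032, 5581 and 2803 across the T-ETV1 arrays. Hspa8, a chaperone that cells express at rest, spanned only 8731 to 9739. The stress-induced chaperones Hspa1a and Hspa1b, near-identical copies whose probe sets may share signal, differed between genotypes by -0.24 ± 0.23 and -0.13 ± 0.14 (SE), and the small heat shock protein Hspb1 by -0.16 ± 0.18. After quantile normalization T-ETV1 B had 11 of 13 above their own means, T-ETV1 D 0, WT A 2, T-ETV1 A 5 and WT C 10. The shares of all genes above were 47.0%, 51.6%, 51.2%, 53.1% and 41.9% in the same order. After median centring T-ETV1 B had 13 of 13 above their own means and T-ETV1 D 1, while WT A had 8, T-ETV1 A 11 and WT C 6. Over all genes the shares above were then 56.8%, 56.2%, 61.3%, 70.1% and 27.0% in the same order. None of the 13 passed limma's threshold, adjusted p being 0.919 or more, and 0 had an unadjusted p under 0.05.

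Of 23 kinases and factors that act upstream, 18 were measured, and their mean deviations ran from -0.22 (WT A) to 0.28 (WT C), where the mean over all genes was -0.08 and 0.23. After median centring WT C was at -0.0070 and T-ETV1 A turned from -0.08 to 0.11. As deposited, T-ETV1 D had a mean deviation of -0.13 and T-ETV1 B of 0.12. The JNK kinase Mapk8 had intensities between 1078 and 1369 and a genotype difference of -0.11 ± 0.11 (SE), the p38 kinase Mapk14 one of -0.10 ± 0.12, and Map2k4, which activates both, one of 0.14 ± 0.13. Atf2, a partner of Jun, had -0.07 ± 0.09 and Mapk9, another JNK, 0.03 ± 0.11. With limma 0 of 18 passed (smallest adjusted p 0.916) and 0 had an unadjusted p under 0.05. The kinases act through phosphorylation, which arrays do not measure.

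Markers of other cell types moved with the 10 genes in some arrays and not in others. In WT C the mean deviations were 2.35 for endothelial, 2.70 for fibroblast, 2.01 for smooth muscle and pericyte, 3.71 for leukocyte and myeloid and 2.11 for basal markers, beside 0.48 for the immediate early genes (0.20 after median centring). In T-ETV1 B, where the immediate early genes were also high (0.39), the same 5 lists were at -1.42, -0.94, -1.08, -1.18 and -1.50. T-ETV1 D, where they were lowest, had -1.40, -0.64, -0.95, -0.79 and -1.44. The list means of other cells were thus below 0 in both T-ETV1 B and T-ETV1 D, while the immediate early levels were opposite. Single markers differed between these 2 arrays. Cd74, a leukocyte marker, had an intensity of 78.5 in T-ETV1 B and 5042 in T-ETV1 D, and Rgs5, a pericyte marker, 4.96 and 325. In T-ETV1 D each was the only member of its list above its own mean, and the other 9 lay below. The part of other cells in the immediate early values was not tested. In these bulk samples, fewer cells of a type and less RNA per cell cannot be told apart.

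**Figure D5:**
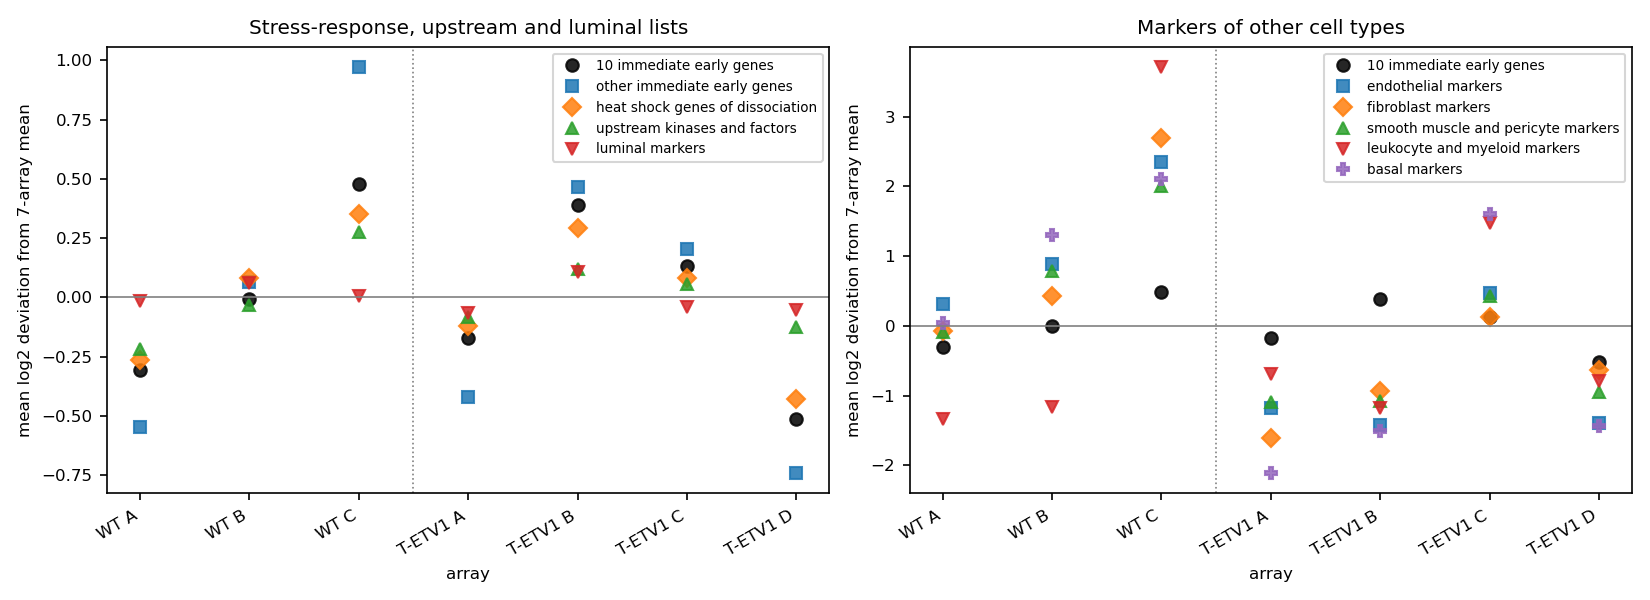
Mean log2 deviation of each gene list from its 7-array mean, by array; left, stress-response, upstream and luminal lists, and right, markers of other cell types, with the 10 immediate early genes in black in both (the vertical scales differ). Immediate early and heat shock genes are above 0 in T-ETV1 B (0.39 and 0.29), where all 5 lists of other cell types are below 0.

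All 10 members of each of these marker lists were measured. The summed intensity of the endothelial markers was 1920.2 to 6187 in WT and 415 to 2459 in T-ETV1, that of the fibroblast markers 5949 to 29882 and 2310 to 9632, and that of the smooth muscle and pericyte markers 778 to 6042 and 207 to 1182. Leukocyte and myeloid markers summed to 7243 to 26756 in WT and 6566 to 12482 in T-ETV1, of which Cd52 alone, read at 5751 to 9153 in every array, made up most outside WT C. Without Cd52, which was set apart after its values were seen, the other 9 summed to 209.9, 412.4 and 20100 across the WT arrays. Across the T-ETV1 arrays they summed to 544.1, 270.2, 4636 and 5147. The sums of WT C, T-ETV1 C and T-ETV1 D were thus high. In T-ETV1 D, however, Cd74 alone gave 5042 of the sum, and 9 of the 10 markers in the list lay below their own means. Basal markers summed to 9724 to 25610 and 3657 to 21787. Many markers were near the floor in at least 1 array: 7 endothelial, 8 smooth muscle and pericyte, 6 leukocyte and 1 basal marker were under 16, the pseudocount, and 1, 2, 1 and 0 of these at 1 or less. No fibroblast marker was under 16. The sum of the 10 luminal markers measured (of 12 listed) varied little, from 72807 to 81054, and was highest in T-ETV1 B.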

How the data were processed

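The authors deposited linear intensities of 45037 probe sets on each array, from RNA extracted with Trizol and amplified with a NuGEN kit, per the labels' protocols. How probes were summarised and arrays scaled is not given in the sources used here. The deposited scaling was kept, and log2(intensity + 16) was analysed. Differences of dim genes are understated on that scale. Of the values, 0.605% were at or under 1.

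Gene names came from the platform annotation (34945 with 1 gene symbol, 932 with several, 9160 not listed), with symbols updated by Entrez ID through RefSeq for 34741. The probe set with the highest mean stood for each of 18193 genes. limma 3.58.1 in R 4.3.3 (lmFit, eBayes, two-sided, Benjamini-Hochberg over all genes, threshold 0.05) compared T-ETV1 with WT. The number of arrays limits the precision. In simulated data for T-ETV1 against WT over 18193 genes, 33 of 100 genes changed by 1 (log2) and 82 of 100 changed by 3 were called, with 6 false calls. The simulation drew each gene independently with normal noise, while genes on these arrays varied together. Its counts therefore do not give the power of these arrays.

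The genes named are the 10 members. Of the other immediate early, heat shock and upstream lists they are the 4 members with the smallest p and the brightest one. To these come the 8 genes most like the members' mean by Pearson's r, predicted genes left out. The rule of smallest p and brightest member was not followed for the marker lists, and marker genes outside it were chosen after their values were seen. The members and lists were chosen with earlier results of these data known. Deviations from the group means correlated at 0.281, 0.217 and 0.356 for the same-letter arrays A, B and C. All were over the limit of 0.1 for pairing. The letters come from the labels, and WT A with T-ETV1 D also reached 0.187. The main fit, which gave the differences and p-values above, took no account of the letters. A fit that did, the replicate block on letters A to C alone, is among the alternatives. The alternatives were quantile normalization, median centring, pseudocounts of 1 and 64, leaving out the lowest 30% of genes, averaging the probe sets of a gene, each other probe set of a member, eBayes with trend and robust settings, the replicate block and leaving out each array. Leaving out both C arrays was added after seeing the data.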

Additional observations from a re-analysis of the deposited data

Results flagged for a closer look

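Of 20 groups of 4 T-ETV1 values examined (the 10 genes and 10 gene lists), 3 had an array far from the other 3. For independent groups chance gives about 1 in 20. These groups share the same 4 arrays and are not independent, so the count cannot be set against that rate. None of the 10 immediate early genes was among them. T-ETV1 C stood apart in the endothelial markers, at a mean deviation of 0.47, and in the smooth muscle and pericyte markers, at 0.43. T-ETV1 B stood apart in the luminal markers, at 0.11.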

How the results depend on the processing

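No alternative called any of the 10 genes, the other immediate early genes, the heat shock genes or the upstream genes; the smallest limma adjusted p over all alternatives was 0.715, 0.504, 0.735 and 0.712 in that order. The mean difference of the 10 genes, -0.10, ran from -0.28 to 0.12 when 1 array was left out (highest without WT C, lowest without WT A). It was 0.04 after median centring, and 0.06 both with the replicate block and without both C arrays, each within the SD of 0.39 between arrays. The replicate block holds no T-ETV1 D array, and its differences for the 10 genes equalled those of leaving out T-ETV1 D alone. The replicate block changed no call. Of 162 values of single genes under alternatives, 22 turned sign. This share does not measure how stable the signs were. The eBayes settings and leaving out the lowest genes left all 10 differences unchanged, and the other pseudocounts barely moved them. The replicate block repeated the values without T-ETV1 D, so the reversals of Fos, Jun and Ier2 were counted under both. With 1 array left out, 8 of the 10 genes took both signs. Median centring gave Fos 0.090, Jun 0.093 and Ier2 0.047, the replicate block gave 0.060, 0.040 and 0.28, and leaving out both C arrays gave Jun 0.12 and Ier2 0.19. Leaving out 1 array gave -0.13 to 0.060 for Fos, -0.15 to 0.31 for Fosb, -0.16 to 0.095 for Jun, -0.53 to 0.036 for Junb, -0.041 to 0.061 for Jund, -0.087 to 0.40 for Atf3, -0.37 to 0.37 for Ier2 and -0.70 to 0.0058 for Ier3. Egr1 (-0.35 to -0.08) and Dusp1 (-0.37 to -0.003) kept their sign. The cause was not tested.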
